A study of Mus musculus with 6 samples.

Results

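The genes described here build the axoneme, the microtubule core of the sperm tail, and were compared between testes of Nxf2 knockout (KO) and wild-type (WT) mice at postnatal day 21. They are 72 genes, chosen by name: 35 listed axonemal genes (dynein chains, tektins, radial spoke proteins and a few partners) and 37 further genes whose current symbol starts with Dnah, Cfap or Efcab and a digit. They stand among 18193 genes with a probe set of a single symbol on the array. The Efcab genes enter by an EF-hand family name, and that name does not make each of them axonemal. Of the 72, Dnah7b, Dnah10 and Rsph10b had no probe set with a single symbol and are not analysed here. For each of the other 69 genes the probe set of highest mean over all 6 arrays was used. The KO group is made of 3 samples of testis, with the X-linked gene Nxf2, which is expressed in germ cells and related to the mRNA exporter Nxf1, disrupted. The WT group is made of 3 samples of the same age. Strain, the deleted part of Nxf2 and the number of animals behind each sample are not given in the labels, so p-values measure only the spread between these samples.

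In an axoneme, outer and inner dynein arms slide neighbouring doublet microtubules past each other, and radial spokes and the central pair apparatus regulate the arms. Tektins and other microtubule inner proteins line the doublets from inside. Dynein arms are assembled in the cytoplasm by dedicated factors before they reach the flagellum. In the testis many axonemal genes are switched on during meiotic prophase in spermatocytes, ahead of the spermatids that build the tail, and RFX and FOXJ1 transcription factors control many of them in ciliated cells.

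As a check of the labels, the Nxf2 probe set had a signal of 116, 106 and 131 in KO testes, against 374, 340.4 and 386 in WT testes (log2 fold change -1.59, SE 0.10, limma adjusted p = 0.000488). The 6 arrays had median signals of 37.1 to 40.9, and Spearman correlations between arrays were 0.985 to 0.992 within KO, 0.980 to 0.991 within WT and 0.965 to 0.983 between the genotypes. Of 12971 genes tested across the array, 956 were called lower and 386 higher in KO (899 and 140 after centring each array on its median, 2057 and 2029 with array weights), and the median log2 fold change over all of them was 0.036. Markers of other cell types were measured beside the members, and their sums are given for KO and WT arrays. Summed over 12 pachytene spermatocyte markers the signal was 9778 to 11172 on KO arrays, against 11734 to 12282 on WT arrays. For 14 measured round spermatid markers the sums were 3872 to 4095 in KO and 5147 to 5569 in WT. For 12 elongating spermatid markers they were 440.1 to 585.7 in KO and 860.1 to 1868 in WT. Of 11 tested elongating spermatid markers 7 were called lower in KO, beside 7.37% of all tested genes. Prm1 (mean 28.9 in KO, 28.2 in WT), Tnp2 (29.2 and 28.5) and Tnp1 (17.7 and 29.0) were dim and not called. Prm2 was too dim to be tested, so this sum does not describe every gene of its list. Sums of Sertoli cell markers were 6691 to 7174 in KO and 5882 to 6153 in WT, of Leydig cell markers 2685 to 3942 in KO and 2224 to 2563 in WT, of macrophage markers 2188 to 3354 in KO and 1499 to 2064 in WT, and of markers of undifferentiated spermatogonia 3614 to 3697 in KO and 3007 to 3020 in WT. In testis RNA, fewer cells of a type and less RNA per cell cannot be told apart, and the part of these lists in the results below was not tested.

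Axonemal genes were lower in KO testes, mostly by less than 2-fold. Of the 61 members bright enough to be tested, 33 fell, none rose and 28 did not pass (limma, adjusted p under 0.05, with the adjustment made over every tested probe set), where 7.37% of all tested genes fell and 2.98% rose. Lower KO means were measured for 59 of the 61, and the 2 others, Dnah11 and Cfap20dc, did not pass. The median log2 fold change of the 61 was -0.39, beside 0.036 over all tested genes. In 50 of the 61 all 3 KO values lay below all 3 WT values, a pattern found in 18.3% of all tested genes, and in none did all KO values lie above all WT values, a pattern found in 21.5% of all tested genes. One member, Efcab9, fell more than 2-fold. No member passed the filter on dim signals through its WT values alone, since no tested member had a KO mean below the limit of 20.5. The number of calls rested most on WT replicate 1: without it 7 members fell (Tekt2, Tekt3, Tekt4, Nme5, Efcab6, Cfap97 and Cfap221) with the median at -0.38, while 0.871% of all tested genes fell. Without any other single array 24 to 33 members fell, and 16 fell when the variance model had no intensity trend, where 2.94% of all tested genes fell.

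**Figure D1:**
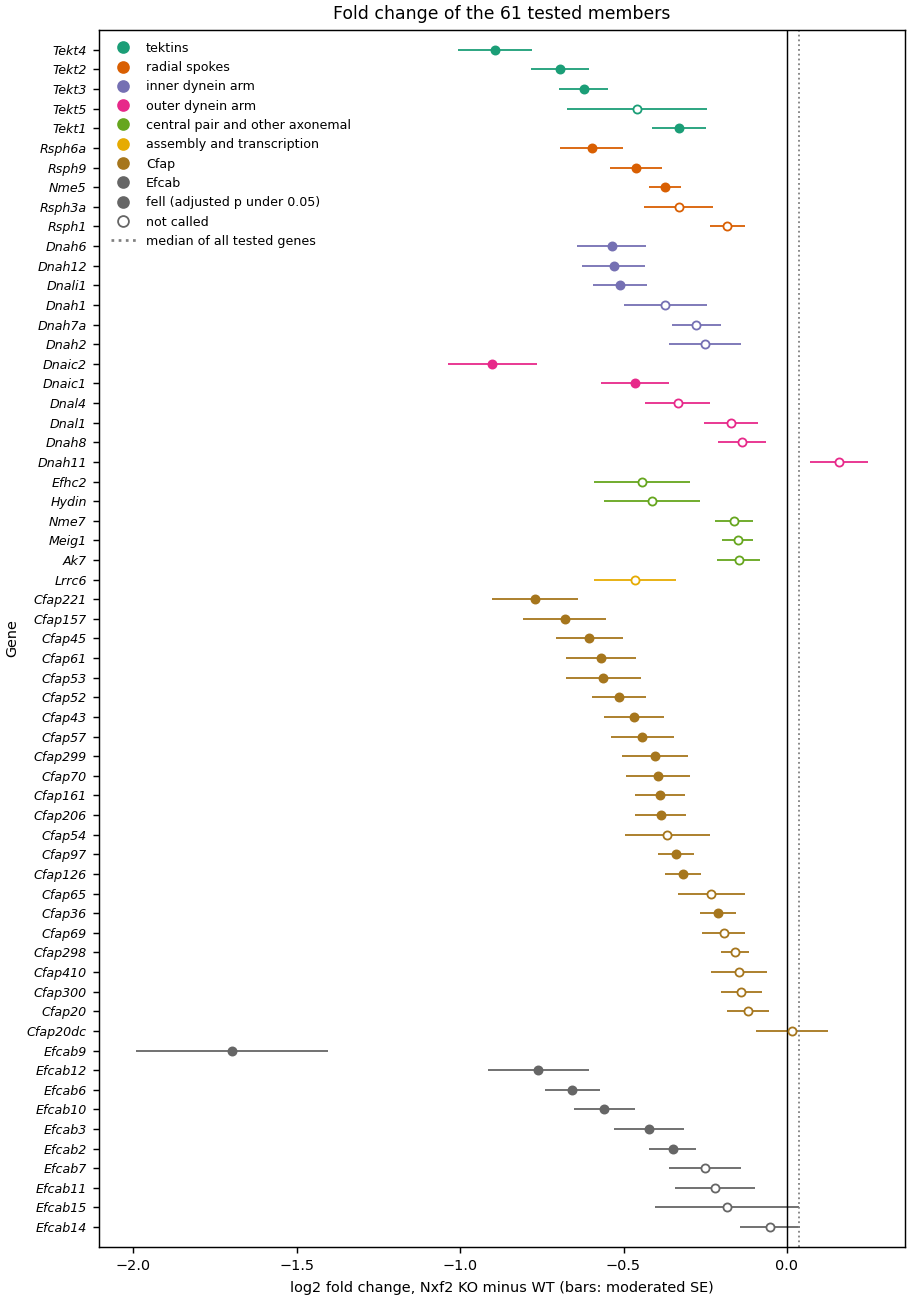
Log2 fold change of each of the 61 tested members (KO minus WT, x axis) with the moderated standard error as a bar, 1 row per gene and 1 colour per class. Filled points are the 33 genes that fell, open points the 28 that did not pass, and the dotted line is the median of all tested genes at 0.036. All but Dnah11 and Cfap20dc lie left of 0, and Efcab9 lies farthest left at -1.70.

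Tektins, filament proteins of the doublet microtubule wall, fell in 4 of 5 cases, and the median log2 fold change was -0.62. Tekt4 had a signal of 141, 115 and 143 in KO testes, against 280.2, 232 and 244 in WT testes. Its fall of 0.89 on the log2 scale was the deepest among the tektins (SE 0.11, adjusted p = 0.00447). Tekt2 had a signal of 268, 261 and 265 in KO testes, against 444, 382 and 479 in WT testes, with the 3 KO values close together. Tekt3 had a signal of 317, 296 and 274 in KO testes, against 473, 456 and 445 in WT testes. Tekt2 and Tekt3 fell by 0.69 and 0.62 on the log2 scale (adjusted p = 0.00447 and 0.00388), and for both genes and Tekt4 the KO and WT groups were far apart compared with their spread. The calls of these 3 genes held under every alternative tried, with adjusted p values of at most 0.0427. Tekt1 had a signal of 588, 564 and 481 in KO testes, against 669.7, 737 and 649.6 in WT testes and fell by 0.33 (adjusted p = 0.0392). That smaller fall lost its call in 8 of 16 alternatives (adjusted p up to 0.125), among them those that left out KO replicate 2 or 3 or any 1 of the WT arrays. Tekt5, a tektin of the sperm tail, had a signal of 80.4, 92.6 and 81.0 in KO testes, against 122, 169 and 80.4 in WT testes. WT replicate 3 was as low as the KO arrays, the groups overlapped and Tekt5 did not pass (log2 fold change -0.46, SE 0.21, adjusted p = 0.188).

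Of the radial spoke genes 3 of 5 tested fell, beside 7.37% of all tested genes. All 5 had every KO value below every WT value, a pattern found in 18.3% of all tested genes. Rsph6a, a spoke head protein of sperm, had a signal of 246, 250.2 and 202 in KO testes, against 348, 338 and 379 in WT testes, the deepest fall of this class at -0.60 on the log2 scale (SE 0.10, adjusted p = 0.00931). Rsph9, a small protein of the spoke head, had a signal of 328, 323 and 279 in KO testes, against 441, 427 and 417 in WT testes and fell by 0.46 (adjusted p = 0.0114). Nme5, of the spoke neck, had a signal of 986, 1008 and 922 in KO testes, against 1251, 1302 and 1226 in WT testes. Its fall of 0.37 had a small error (SE 0.049, adjusted p = 0.0049) and held under every alternative. Rsph1, a spoke head protein, had a signal of 1578, 1570.3 and 1417 in KO testes, against 1635, 1815 and 1735 in WT testes and did not pass (log2 fold change -0.18, adjusted p = 0.0659). Rsph3a, of the spoke stalk, did not pass either (log2 fold change -0.33, adjusted p = 0.0827). Its second probe set had a log2 fold change of -0.0036, and the near copy Rsph3b may share its signal. Rsph4a, the spoke head protein of respiratory cilia, was left out by the dim filter with signals of 6.04, 10.1 and 7.12 in KO testes, against 6.18, 5.19 and 5.41 in WT testes, so its group difference was not measured above the limit.

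**Figure D2:**
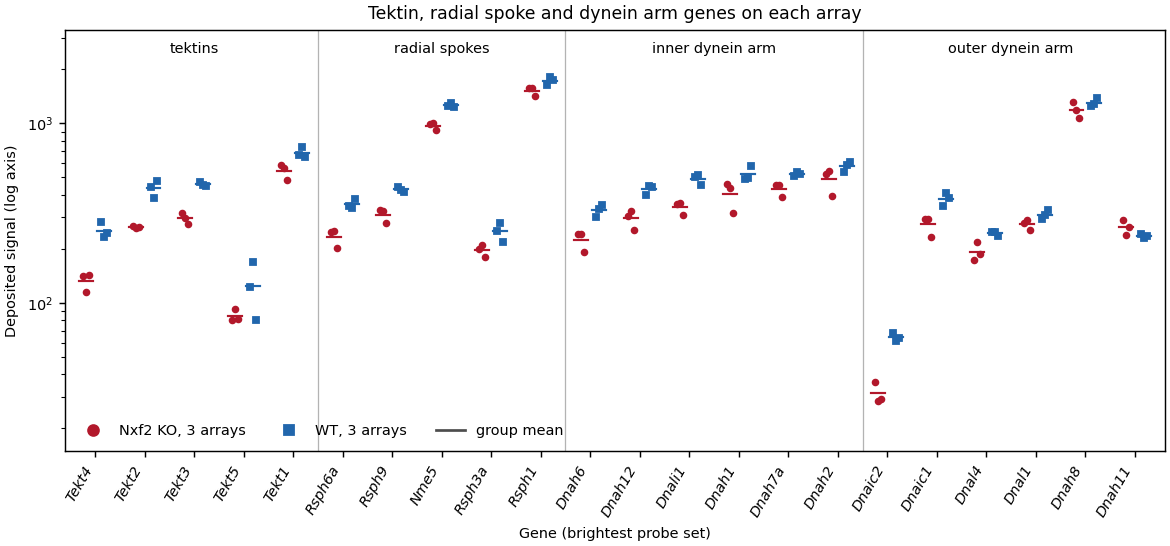
Deposited signal (log axis) of the tested tektin, radial spoke and dynein arm genes on each of 3 KO arrays (circles, left) and 3 WT arrays (squares, right), with group means as short lines. The groups are apart for Tekt2, Tekt3, Tekt4, Rsph6a, Nme5 and Dnaic2 and overlap for Tekt5, Dnah8 and Dnah11.

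Inner dynein arm genes fell in 3 of 6 tested cases, with a median log2 fold change of -0.44. Dnah12 and Dnah6 encode motor subunits of the single-headed inner arms. Dnah12 had a signal of 306, 325 and 255 in KO testes, against 397, 448 and 439 in WT testes and fell by 0.53 (SE 0.10, adjusted p = 0.0143). Dnah6 had a signal of 240.3, 243 and 192 in KO testes, against 302, 332 and 350.3 in WT testes and fell by 0.54 (SE 0.11, adjusted p = 0.0188). In both genes KO replicate 3 was the lowest array. Dnali1, the light intermediate chain that some inner arms share, had a signal of 357, 359 and 308 in KO testes, against 502, 513 and 452 in WT testes, with a fall of 0.51 (adjusted p = 0.00935) in its brightest and 0.49 in its second probe set (adjusted p = 0.0224). Dnah1 (log2 fold change -0.37, adjusted p = 0.0971), another single-headed heavy chain, did not pass. Nor did Dnah2, of the double-headed inner arm (log2 fold change -0.25, adjusted p = 0.169). For Dnah7a the log2 fold change was -0.28 (adjusted p = 0.0531), and its near copies Dnah7b and Dnah7c may share its signal.

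Among outer dynein arm genes both intermediate chains fell, and neither tested heavy chain (Dnah8 and Dnah11) passed. Of 6 tested genes 2 fell, with a median log2 fold change of -0.25. Dnaic2 and Dnaic1 encode the 2 intermediate chains that tie the motors to the docking site. Dnaic2 had a signal of 36.1, 28.5 and 29.2 in KO testes, against 67.9, 60.8 and 63.9 in WT testes and fell (log2 fold change -0.90, SE 0.14, adjusted p = 0.00692). Dnaic1 had a signal of 294, 294 and 233 in KO testes, against 348, 406 and 382 in WT testes and fell by 0.46 (adjusted p = 0.0276). The second Dnaic1 probe set fell by 0.54 (adjusted p = 0.0166). The brightest heavy chain probe set of this class was that of Dnah8, an outer arm motor of sperm. Dnah8 had a signal of 1322, 1181 and 1064 in KO testes, against 1244, 1286 and 1380.1 in WT testes, with KO replicate 1 inside the WT range, and did not pass (log2 fold change -0.14, SE 0.073, adjusted p = 0.248). Dnah11, known as an outer arm motor of respiratory and nodal cilia, had a signal of 289, 239 and 263 in KO testes, against 240.3, 229 and 235 in WT testes. It was 1 of the 2 members with a higher KO mean, and the groups overlapped (log2 fold change 0.16, adjusted p = 0.264). The light chain genes Dnal4 (log2 fold change -0.33, adjusted p = 0.0665) and Dnal1 (log2 fold change -0.17, adjusted p = 0.199) did not pass. Dnah5, Dnah9 and Dnah17, 3 further outer arm motors, were left out by the dim filter with no array above a signal of 10.2. Dnah17 read 0.343 to 1.05 over all arrays. A dim probe set does not show that its gene is silent, so these 3 motors are unmeasured here. Over both arms, 2 of 7 tested heavy chain genes and 3 of 5 intermediate or light chain genes fell.

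Cfap genes, a naming family of cilia and flagella proteins with unlike structures, fell in 15 of 23 tested cases and rose in none, with a median log2 fold change of -0.39. Cfap221, of the central pair apparatus, had a signal of 111, 120.4 and 87.4 in KO testes, against 165, 193 and 196 in WT testes, the deepest fall of the family at -0.77 on the log2 scale (SE 0.13, adjusted p = 0.0108). Cfap157, needed for sperm flagella in mice, had a signal of 33.7, 36.9 and 33.8 in KO testes, against 64.6, 55.1 and 60.5 in WT testes and fell by 0.68 (adjusted p = 0.0155). Both genes had every KO array well below every WT array. Microtubule inner proteins were among those that fell. Cfap45 had a signal of 165, 181 and 144 in KO testes, against 257, 235 and 262 in WT testes and fell by 0.60 (adjusted p = 0.011). Cfap52 had a signal of 344, 365 and 311 in KO testes, against 477, 528 and 459.6 in WT testes and fell by 0.51 (adjusted p = 0.00907). Of the same kind, Cfap53, Cfap161 and Cfap126 (Flattop) fell by 0.56, 0.39 and 0.32, and Cfap20, of the inner junction of the doublet, did not pass (log2 fold change -0.12, adjusted p = 0.249). Cfap61, of the complex at the base of a radial spoke, fell by 0.57 (adjusted p = 0.016). Its second tested probe set had a log2 fold change of -0.14 and did not pass. Cfap43, which tethers an inner arm motor, fell by 0.47, Cfap57, needed for inner arm assembly, by 0.44, Cfap206, at the base of a radial spoke, by 0.39, and Cfap70, of the outer arm, by 0.39. Cfap299 fell by 0.40 and Cfap36 by 0.21, the smallest called fall of any member (adjusted p = 0.047). Cfap97 had a signal of 825, 852 and 799 in KO testes, against 993, 1108 and 1041 in WT testes and fell by 0.34 (SE 0.054, adjusted p = 0.00884), with a fall of 0.75 in another of its probe sets (adjusted p = 0.0160) and a log2 fold change of -0.59 in a further one that did not pass.

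The 8 tested Cfap genes that did not pass had log2 fold changes between -0.37 and 0.015. At the lower end was Cfap54, a central pair protein (adjusted p = 0.104), and at the upper end Cfap20dc (adjusted p = 0.943). The brightest probe set of the family was that of Cfap298, an assembly factor of dynein arms, with a signal of 1222, 1232 and 1146 in KO testes, against 1341, 1349 and 1332 in WT testes. Its 3 KO values lay below its 3 WT values, at an adjusted p of 0.0505 (log2 fold change -0.16). Cfap300, another assembly factor, stood at -0.14 on the log2 scale (adjusted p = 0.169), Cfap65 at -0.23 and Cfap410 at -0.15. For Cfap69, needed for sperm tails, the brightest probe set did not pass (log2 fold change -0.19, adjusted p = 0.0946), while another of its 3 tested probe sets fell by 0.59 (adjusted p = 0.00977). Cfap47 and Cfap97d1 were left out by the dim filter. Cfap97d1 had a signal of 0.592, 2.63 and 6.0 in KO testes, against 21.8, 13.4 and 23.8 in WT testes, with no overlap between the groups but a mean under the limit.

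Of the Efcab genes 6 of 10 tested fell, among them the member with the deepest fall. Efcab9, the EF-hand subunit of the sperm calcium channel CatSper, had a signal of 21.4, 20.2 and 32.2 in KO testes, against 113, 52.1 and 139 in WT testes. Its log2 fold change was -1.70 (SE 0.29, adjusted p = 0.0115), a fall of 3.24-fold on the log2(signal + 7) scale. The groups did not overlap, and among WT arrays replicate 2 stood well below the others. Over the alternatives the log2 fold change of Efcab9 was -2.08 to -1.09, the smallest with a pseudocount at the median signal of 39, and its call was lost without WT replicate 1 and without the intensity trend. Efcab12 had a signal of 37.5, 39.1 and 40.1 in KO testes, against 70.5, 57.4 and 87.3 in WT testes, with WT replicate 2 again the lowest WT array, and fell by 0.76 (adjusted p = 0.0203). Efcab6 had a signal of 188, 193 and 178 in KO testes, against 319, 277 and 298 in WT testes and fell by 0.66 (adjusted p = 0.00471). Efcab10 fell by 0.56, Efcab3 by 0.42 and Efcab2, of the nexin-dynein regulatory complex, by 0.35, each with every KO value below every WT value. Efcab7, a Hedgehog pathway protein of the primary cilium (log2 fold change -0.25), Efcab11 (-0.22), Efcab15 (-0.18) and Efcab14 (-0.052) did not pass, with adjusted p values of 0.169 to 0.739. Efcab1 (calaxin), an outer arm regulator, was left out by the dim filter.

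None of the 5 tested central pair and other axonemal members passed, though all had lower KO means, with a median log2 fold change of -0.16. This mixed class leaves out central pair genes counted with the Cfap genes, among them Cfap221, which fell, and Cfap54, which did not pass. Meig1, needed for spermiogenesis in mice, had a signal of 1364, 1320.1 and 1238 in KO testes, against 1426, 1514 and 1416 in WT testes. Its 3 KO values lay below its 3 WT values, at an adjusted p of 0.0809 (log2 fold change -0.15). Hydin, a very large central pair protein, had a signal of 169, 169.8 and 119.6 in KO testes, against 179.9, 201 and 233 in WT testes, with KO replicate 3 well below the other KO arrays and no overlap of the groups (log2 fold change -0.41, adjusted p = 0.105). Ak7, an adenylate kinase of the axoneme, stood at -0.15 on the log2 scale (adjusted p = 0.165). The microtubule inner protein genes Nme7 and Efhc2, of which Efhc2 is X-linked, stood at -0.16 (adjusted p = 0.105) and -0.44 (adjusted p = 0.0888). Lrrc6, a dynein arm assembly factor, had a signal of 364, 389 and 261 in KO testes, against 459, 468 and 461 in WT testes and missed the threshold (log2 fold change -0.47, adjusted p = 0.0522), and it passed in 6 of 16 alternatives, with adjusted p values of 0.00839 to 0.148 over all 16. Foxj1, the transcription factor of motile ciliogenesis, had a signal of 6.25, 4.28 and 7.02 in KO testes, against 23.1, 14.7 and 22.6 in WT testes. Foxj1 KO values were all below its WT values, but its mean of 13.0 was under the dim limit and it was not tested.

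**Figure D3:**
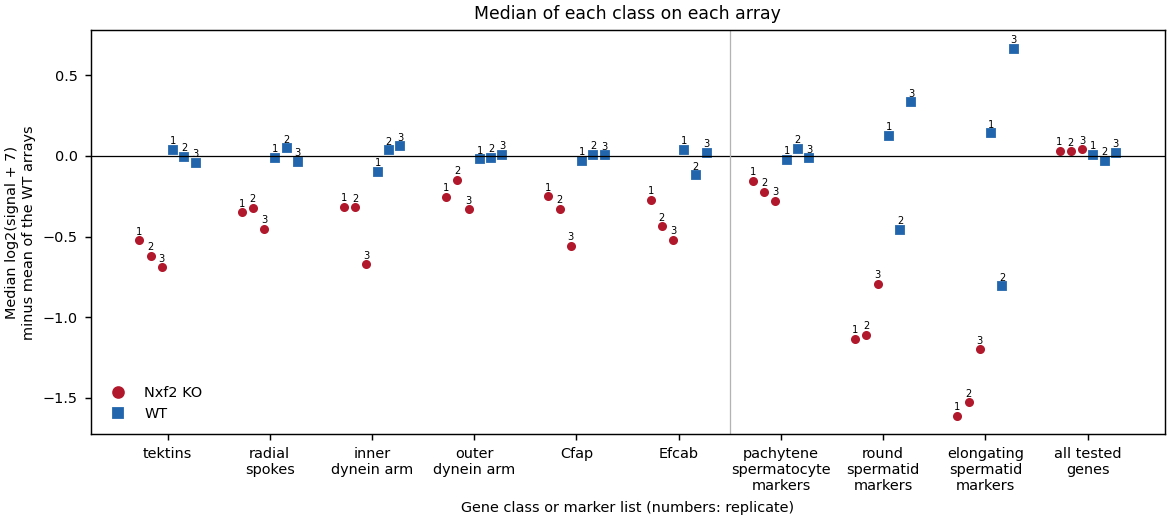
Median over genes of log2(signal + 7), each gene less its WT mean, for each array (circles KO, squares WT, numbers are replicates), in 6 classes of members, 3 lists of germ cell markers and all tested genes. The WT arrays lie between -0.12 and 0.059 in all 6 classes, while WT replicate 2 lies at -0.46 in the round and -0.81 in the elongating spermatid markers. KO means were under the dim limit for 4 of 14 tested round and 5 of 11 tested elongating spermatid markers.

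The medians of the arrays were ordered differently in axonemal genes and in spermatid markers. With each gene set against its WT mean, the median of the 61 tested members was -0.27, -0.33 and -0.53 on KO arrays 1 to 3, against -0.010, -0.0025 and 0.0035 on WT arrays 1 to 3. The round spermatid markers had medians of -1.13, -1.11 and -0.79 in KO and of 0.13, -0.46 and 0.33 in WT. Of these 14 markers 4 had a KO mean under the dim limit and were tested through their WT values. The order of KO arrays in those 4 is therefore not informative, though they are part of these medians and of the counts that follow. The pachytene markers had medians of -0.15, -0.22 and -0.28 in KO and of -0.024, 0.045 and -0.015 in WT. KO replicate 3 was the lowest KO array in 46 of the 61 members (75.4%) and in 36.6% of all tested genes. It was lowest in 8 of 12 pachytene markers and in 2 of 14 round spermatid markers. The 2 were Acr (443, 424 and 381 on KO arrays 1 to 3) and Zpbp2 (1145, 1081 and 1011). In the bright round spermatid markers Zpbp (641, 532 and 549) and Tex101 (1402, 1352 and 1396) KO replicate 2 was lowest. KO replicate 3 also had the largest sums of Leydig (3942) and macrophage (3354) markers, and without it the median of the members was -0.30 and 30 fell. WT replicate 2 was the lowest WT array in 21 of the 61 members and in 15 of the 33 that fell (45.5%). The same array was lowest in 11 of 14 round spermatid markers and in 48.1% of all tested genes. These shares are descriptions, and their differences were not tested.

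Among the members, genes of higher signal had smaller falls. Among the 21 dimmest genes (mean signals 35.2 to 291.8) the median log2 fold change was -0.54, among the 20 of middle signal (294.0 to 531.4) it was -0.46, and among the 20 brightest (574.6 to 1625) it was -0.20. Of these groups 11, 13 and 9 genes fell, in the same order. Of all tested genes in the same signal ranges 6.63%, 8.81% and 7.83% fell. Their median log2 fold changes were 0.10, 0.013 and -0.014. Over the 61 members Spearman's rho between mean signal and log2 fold change was 0.54, and over all tested genes it was -0.20. These are correlations across genes that share the same 6 arrays, and genes are not independent replicates.

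**Figure D4:**
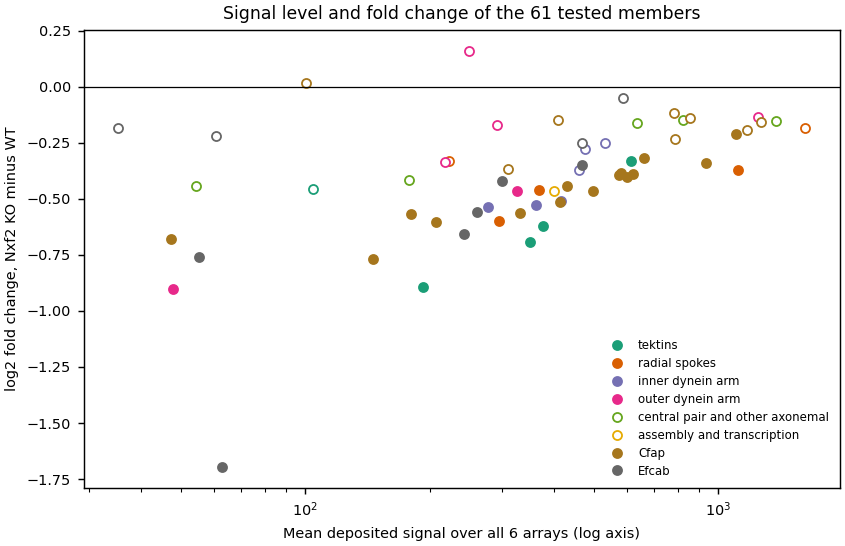
Mean deposited signal over all 6 arrays (x, log axis) against the log2 fold change of KO minus WT (y) for the 61 tested members, coloured by class. Filled points fell and open points did not pass. Most genes above a signal of 574.6 lie closer to 0 than those below.

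Where a member had further probe sets, these mostly pointed the same way. Of 24 other tested probe sets of members 22 had the sign of the brightest, and the 2 exceptions belonged to Cfap20dc and Efcab14. Of the 9 that belonged to genes called by their brightest probe set all 9 were lower in KO and 3 were called.

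Promoter windows were searched for RFX and FOX motifs because many members moved together. RefSeq windows of GRCm38.p6, 250 bases before to 50 after the annotated start, were at hand for 56 of the 72 members. The RFX half-site GTTGCC, on either strand, was found in windows of 16 members (28.6%), beside 14.1% of 27025 genes with a window. The X-box, searched on either strand as the half-sites GTTNCC and NGNAAC with 2 bases between them, was found in 7 members (12.5%), beside 0.936% of all genes. An X-box can contain a half-site. The FOX motif GTAAACA was found in 5 members (8.93%), beside 4.05% of all genes, and the cAMP response element TGACGTCA in 2 (3.57%), beside 2.03%. The X-box stood in 3 of 26 members that fell and in 4 of 23 tested members that did not pass. A match of letters is a description and not a site. The 7 matches to the X-box, on the strand of the gene, are shown to compare their letters.
Cfap45: GTTGCTATGGTAAC
Cfap61: GTTTCCTTAGCAAC
Tekt4: GTTCCTTAGGCAAC
Hydin: GTTGCTGTGGCAAC
Nme7: GTTGCCAGAGTAAC
Cfap298: GTTGCCCGGGCAAC
Cfap20dc: GTTGCCTGGGCAAC

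Cfap45, Cfap61 and Tekt4 fell, and the other 4 did not pass. Each match started between positions -188 and 0, with 0 the first transcribed base. The windows of Tekt4, Cfap45 and Cfap61, which fell, are given with the X-box and any half-site in capitals, followed by that of Hydin, which did not pass. They lie at chr17:25471340-25471639 (plus strand), chr1:172520880-172521179 (plus strand), chr2:145934534-145934833 (plus strand) and chr8:110266727-110267026 (plus strand) of GRCm38.p6.
Tekt4: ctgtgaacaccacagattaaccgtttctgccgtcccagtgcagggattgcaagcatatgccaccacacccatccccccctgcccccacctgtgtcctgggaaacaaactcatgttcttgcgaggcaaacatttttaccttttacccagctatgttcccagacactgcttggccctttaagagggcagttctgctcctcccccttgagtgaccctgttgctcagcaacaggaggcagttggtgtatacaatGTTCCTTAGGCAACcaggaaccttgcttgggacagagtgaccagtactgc
Cfap45: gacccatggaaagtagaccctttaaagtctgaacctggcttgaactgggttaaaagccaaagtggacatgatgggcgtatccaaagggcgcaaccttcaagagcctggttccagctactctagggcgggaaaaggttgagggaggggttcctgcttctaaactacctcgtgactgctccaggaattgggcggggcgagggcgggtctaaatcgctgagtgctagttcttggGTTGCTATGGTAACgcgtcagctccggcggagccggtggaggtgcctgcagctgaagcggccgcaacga
Cfap61: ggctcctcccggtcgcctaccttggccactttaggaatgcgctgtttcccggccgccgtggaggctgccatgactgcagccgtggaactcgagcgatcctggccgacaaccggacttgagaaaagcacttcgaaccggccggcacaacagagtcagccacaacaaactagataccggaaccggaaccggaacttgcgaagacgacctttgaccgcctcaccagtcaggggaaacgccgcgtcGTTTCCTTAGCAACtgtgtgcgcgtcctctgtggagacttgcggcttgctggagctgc
Hydin: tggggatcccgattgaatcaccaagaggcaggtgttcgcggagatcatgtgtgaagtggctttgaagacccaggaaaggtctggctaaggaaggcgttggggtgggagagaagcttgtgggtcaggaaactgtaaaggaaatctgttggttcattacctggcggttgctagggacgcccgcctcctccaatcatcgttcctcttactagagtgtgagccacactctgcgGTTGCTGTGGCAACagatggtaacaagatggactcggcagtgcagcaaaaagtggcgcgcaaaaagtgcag

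Tekt2, whose call held under every alternative, has 3 windows, which overlap: 2 of them held 2 half-sites each, the other held no half-site, and no X-box was found. The window shown lies at chr4:126325597-126325896 (minus strand), and the half-sites are in capitals.
Tekt2: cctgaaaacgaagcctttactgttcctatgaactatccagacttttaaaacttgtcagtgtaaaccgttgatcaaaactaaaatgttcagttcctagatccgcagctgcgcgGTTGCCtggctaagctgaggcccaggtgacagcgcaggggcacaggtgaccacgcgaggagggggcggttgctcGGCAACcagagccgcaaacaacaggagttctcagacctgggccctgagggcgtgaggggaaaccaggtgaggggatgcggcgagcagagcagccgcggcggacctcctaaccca

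Further axonemal genes that are no members were counted in 4 lists, beside 7.37% of all tested genes that fell. Of 13 tested dynein assembly factors 6 fell, none rose and 7 did not pass, with a median log2 fold change of -0.24. Ruvbl1, of the 7, had a higher KO mean (log2 fold change 0.088, adjusted p = 0.368). Ccdc103 fell by 0.65, Spag1 by 0.40, Pih1d2 by 0.36, Ruvbl2 by 0.28, Dnaaf1 by 0.24 and Pih1d1 by 0.23. Of 7 genes of the outer arm docking complex and the axonemal ruler 3 fell, with a median of -0.49: Armc4 by 0.76 and Ttc25 by 0.50, of the docking complex, and Ccdc40, of the ruler, by 0.39. Of 8 tested genes of the nexin-dynein regulatory complex 5 fell, with a median of -0.43. Drc1 fell by 0.53, Drc3 by 0.47, Ccdc65 by 0.47 and Iqcg by 0.38. Iqca fell by 1.60, with a KO mean of 11.6 under the dim limit beside a WT mean of 49.6. Of 7 tested genes in the list named for the central pair 2 fell, Spag16 by 0.82 (adjusted p = 0.00273) and Spef2 by 0.51, with a median of -0.18. That list also holds Ropn1l (log2 fold change -0.13) and Spa17 (-0.16), which did not pass and are not established central pair genes.

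The list of cytoplasmic dynein genes, which holds the motor of the cell body and that of intraflagellar transport, showed no common direction. Of 12 tested genes 2 fell (16.7%, beside 7.37% of all tested genes). They were Dync2li1, of the motor of intraflagellar transport, by 0.32 and the light chain gene Dynlrb2 by 0.31. The light chain gene Dynll2 rose by 0.25 (adjusted p = 0.0297), and the other 9 did not pass, with the median of all 12 at 0.0011. The heavy chain gene Dync1h1 averaged 1051 ± 61.5 signal units in KO and 1099 ± 65.6 in WT (SD, n = 3 each, log2 fold change -0.064, adjusted p = 0.504). Also among those 9 was Dync2h1, of the motor of intraflagellar transport (log2 fold change -0.34, adjusted p = 0.0837). Its KO values all lay below its WT values, a pattern found in 18.3% of all tested genes. Of 8 transcription factors with a part in ciliary or spermatid transcription 1 fell (12.5%, beside 7.37% of all tested genes). It was Crem, by 0.39 (adjusted p = 0.0234). Rfx2, which spermatids need in mice, did not pass (log2 fold change -0.31, adjusted p = 0.057).

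Ducts with multiciliated or secretory epithelium adjoin the testis, so their markers were measured too. Of 9 multiciliated cell markers, Foxj1 included, 7 had a probe set and 2 were bright enough to be tested. Deup1 fell by 0.90 (adjusted p = 0.00692) and Ccno did not pass (log2 fold change 0.22). The summed signal of the 7 was 161.9 to 207.6 on KO arrays, against 238.2 to 299.6 on WT arrays. Means of Foxj1, Cdhr3, Sec14l3, Tmem212 and Bpifa1 were under the dim limit in both groups, and no marker was at 0. Of the epididymal markers 5 of 9 had a probe set and 3 of 3 tested fell, beside 7.37% of all tested genes. Of these 3, 1 had a KO mean under the dim limit and was tested through its WT values. Sums of the 5 were 559.8 to 706.7 in KO and 810.3 to 843.0 in WT. The part of these tissues in the members' falls was not tested.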

How the data were processed

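Biotin-labelled RNA of 6 testis samples was hybridised to 1-colour arrays, per the labels' protocols. The authors deposited 1 linear signal intensity per probe set and array, and the submitters' processing notes name MAS5, with no version. Trimmed of its lowest and highest 2%, each array averaged 150.0, so the deposited intensities were already scaled by 1 factor per array. Of 45037 probe sets that are no controls, 34945 have 1 symbol, and Entrez identifiers updated 99.4% of those to the RefSeq table of GRCm38.p6. No scanner files or detection calls were used, so the dim limit is a filter and not a background measure, and the number of arrays limits the precision.

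A pseudocount of 7, the 25th percentile of the deposited values, was added before log2, which understates fold changes of dim genes. Probe sets with a mean of at least 20.5 over all 6 arrays (the 40th percentile) were tested, 27022 in all, of which 2024 were called (1414 lower and 610 higher in KO, or 1382 and 247 after median centring). The test was limma 3.58.1 under R 4.3.3, two-sided, with lmFit, an eBayes intensity trend, no covariate and Benjamini-Hochberg adjustment over the 27022. A log2 fold change is KO minus WT, and its error is the moderated standard error (SE).

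The members, the classes and the gene lists were chosen with earlier results of these data known. All called members were named, with the 3 brightest and the 3 of lowest p in each class. From the other lists the called genes were named, or the 2 of lowest p where none was called. The remaining members, Dync1h1, Dync2h1, Ropn1l, Spa17, Rfx2, the single spermatid markers and the motifs were picked after the values were seen. The alternatives were quantile normalization, median centring, 2 other pseudocounts, 2 other filters, no intensity trend, array weights, a block on the replicate number, each array left out, and, per gene, the average of its probe sets.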

Additional observations from a re-analysis of the deposited data

How the results depend on the processing

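The 33 falls among the members (7.37% of all tested genes fell) were 16 without the intensity trend (2.94%), 25 without the dim filter (of 69 members, 3.11%), 44 with array weights (15.9%) and 7 to 33 when 1 array was left out (0.871% to 6.24%), lowest without WT replicate 1. No member rose under any alternative, and none of the 33 turned its direction. The 2024 called probe sets were 7217 with array weights (3446 lower and 3771 higher), 1005 without the dim filter, 743 without the intensity trend and 159 to 1534 when 1 array was left out. The design text speaks of 3 pairs of KO and WT testes and does not say what was paired or how numbers match. With the replicate number as a block 39 members fell (11.2% of all tested genes), Lrrc6 passed (adjusted p = 0.0132) and 4503 probe sets were called (2330 lower and 2173 higher). The correlation of deviations was 0.079 for number 1, 0.46 for number 2 and 0.27 for number 3. Between KO and WT arrays of unlike number it was -0.33 to 0.11. Because no label says how the numbers match, the block is given as an alternative only. The outer arm median of -0.25 was -0.14 without the dim filter, where the 3 dim heavy chains enter. Efcab14 turned to 0.10 with array weights and ranged from -0.12 to 0.035 when 1 array was left out, above 0 without KO replicate 3 and without WT replicate 2. The median of all tested genes turned to -0.0082 after median centring. The cause of the other changes was not tested. The order of signals under the dim limit is not informative here, so the values given for Foxj1 and Cfap97d1 are a description only.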
